A study of Mus musculus with 10 samples.

Results

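The 41 genes described here encode the machinery of macroautophagy and of the lysosome. They were taken as a list of symbols that covers autophagy initiation, conjugation, the LC3 and GABARAP proteins, autophagy receptors, the MiT transcription factors, lysosomal membrane proteins, lysosomal hydrolases and subunits of the vacuolar proton pump. All 41 were found among the 21849 genes of the count table, and 40 had enough counts to be tested. RNA came from whole tumours of the mouse colon carcinoma line CT26, implanted under the skin of BALB/c mice. One group of 5 mice ate a diet without arginine but of equal calories, and the other 5 mice ate the normal diet. The mice were 5 weeks old when they were assigned, had eaten their diet for 1 week before implantation, and gave their tumours on day 20. All tumours came from 1 cell line, and the hosts carried no labelled genetic change, so the groups differ by label in diet alone.

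In macroautophagy a double membrane grows around cytoplasm, closes into an autophagosome and fuses with a lysosome, where acid hydrolases break the contents down. The kinase mTORC1, active when amino acids are plentiful, restrains this process by phosphorylating the ULK1 complex, and it holds TFEB and TFE3 in the cytoplasm. When these factors enter the nucleus, they bind a palindrome with CACGTG at its core, known as the CLEAR motif, in the promoters of many lysosomal genes. Much of this control acts on proteins and membranes, which transcript counts do not measure. In tumours, macrophages are a lysosome-rich cell type beside the cancer cells. In bulk tissue such as this, fewer cells of a type and less RNA per cell cannot be told apart.

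Promoter sequences of 33 of the 41 members were found in RefSeq on GRCm38.p6, as 40 windows that run from 250 bases before to 50 bases after a gene's start. CACGTG stood in 11 of the 40 windows (27.5%), against 7.15% of all 32851 promoter windows of the same length. The longer form TCACGTGA, which holds CACGTG within it, stood in 7 windows (17.5%), against 0.974% of all windows. With a further G before it and C after it, it stood in 0 of 40, against 0.326% of all windows. Both motifs read the same on both strands, and a match describes the letters in the window, not a bound site. The 7 members with TCACGTGA, and Lamp1 with 4 copies of CACGTG, are shown because their promoters hold the longer form or the most copies of the core. The sequences run 5′ to 3′ on the strand of the gene, with CACGTG in capitals.
Atg3, chr16:45158719-45158778, plus strand: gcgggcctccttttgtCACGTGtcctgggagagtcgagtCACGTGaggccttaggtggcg
Atp6v0d1, chr8:105566060-105566119, minus strand: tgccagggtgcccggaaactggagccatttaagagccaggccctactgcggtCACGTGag
Atp6v1a, chr16:44139358-44139417, minus strand: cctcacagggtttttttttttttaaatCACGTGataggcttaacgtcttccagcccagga
Ctsa, chr2:164833713-164833772, plus strand: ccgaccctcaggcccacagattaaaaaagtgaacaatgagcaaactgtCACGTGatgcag
Ctsd, chr7:142387893-142387952, minus strand: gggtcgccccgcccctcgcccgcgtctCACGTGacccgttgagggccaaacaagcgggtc
Gla, chrX:134601184-134601243, minus strand: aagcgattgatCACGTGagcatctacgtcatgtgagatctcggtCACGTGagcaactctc
Lamp1, chr8:13159096-13159155, plus strand: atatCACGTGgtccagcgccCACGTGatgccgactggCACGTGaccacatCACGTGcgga
Mcoln1, chr8:3500434-3500493, plus strand: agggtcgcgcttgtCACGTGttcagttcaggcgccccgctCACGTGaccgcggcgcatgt

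The libraries held between 12013178 and 31530123 counts. Arginine-deficient replicate 3 stood apart from the other tumours, with 9.97% of its counts from mitochondrially encoded genes, against 1.67% to 4.44% in the other 9. Skeletal muscle transcripts summed to 6680 CPM in that library (counts scaled to a common library total with TMM factors), 1689 CPM in replicate 4 of the same diet and 664 CPM in replicate 4 of the normal diet, and the other 7 libraries held 71.4 to 163 CPM. Its levels also ran against GC content: the slope of log2 CPM on transcript GC content, relative to the mean library, was -0.463 per 10 percentage points there, and -0.289 to 0.314 in the others. Macrophage markers, of which 13 of 14 were tested, summed to 3190 ± 224 CPM on the arginine-deficient diet and 3002 ± 341 CPM on the normal diet (mean ± SD, n = 5 each; exact two-sided permutation p = 0.325). Transcripts of 4 erythroid genes summed to 602 and 528 CPM in normal-diet replicates 1 and 5, and to 56.2 to 202 CPM in the other libraries. All 4 were lower in value on the deficient diet, with a median log2 fold change of -1.69 (lowest edgeR adjusted p = 0.281). The 7 markers of carcinoma epithelium were low, with a summed level of 8.62 to 20.2 CPM on the deficient diet and 10.997 to 25.4 CPM on the normal diet. Most of it was Krt18, at 4.15 to 14.6 CPM on the deficient diet and 8.33 to 20.4 CPM on the normal diet, and Epcam and Cdx2 were below 1 CPM in every library. The markers did not run one way: of the 4 tested, 2 had a log2 fold change above 0 and 2 below it, with a median of 0.19. Cdh1 averaged 3.13 CPM on the deficient diet and 1.86 CPM on the normal diet. Values without the 3 libraries with most muscle transcripts are given where those libraries moved a result most.

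No member differed between the diets past the threshold of the test across all 12929 tested genes. With edgeR's quasi-likelihood test and Benjamini-Hochberg adjustment at 0.05, 0 of 40 members passed, and the lowest adjusted p was 0.687. Across all genes 7 passed, or 0.0541%, all of them higher on the deficient diet. At an unadjusted p under 0.05 there was 1 member, Atp6v0d2, higher on the deficient diet, and none lower. Among all tested genes 6.74% were found there, 3.54% higher and 3.19% lower. In 0 of 40 members were the libraries of one diet all above those of the other, as they were in 1.65% of all tested genes. The 95% interval of the log2 fold change lay within 1 log2 unit of 0 for 37 of 40 members, against 85.0% of all tested genes. Differences smaller than that are not excluded: the interval reached 0.69 for Becn1 and 0.61 for Lamp2.

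The member values leaned slightly to the higher side. The log2 fold change of the arginine-deficient over the normal diet was above 0 for 33 of 40 members and below 0 for 7, where 50.3% of all tested genes were above 0. Its median was 0.08 over the members and 0.0012 over all tested genes. Among the roles compared, the median log2 fold change was 0.08 over 19 autophagy genes, 0.06 over 9 lysosomal hydrolases and 0.10 over 6 proton pump subunits. Values above 0 were held by 17 of 19 autophagy genes, 6 of 9 hydrolases and 6 of 6 pump subunits. These medians are small beside the error of a single gene, whose median standard error over the members was 0.14. With one library left out the medians ran from 0.038 to 0.118 over all members, 0.046 to 0.173 over the autophagy genes, 0.010 to 0.082 over the hydrolases and 0.069 to 0.161 over the pump subunits, and 29 to 35 members were above 0.

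This lean was largest in 2 tumours. Relative to the mean of the normal-diet libraries, the median member level on the log2 scale was 0.23, 0.22, -0.15, -0.02 and 0.04 in arginine-deficient replicates 1 to 5, against 0.03, -0.07, 0.0024, -0.0073 and 0.05 in normal-diet replicates 1 to 5. Arginine-deficient replicate 1 held the highest value of 13 members and replicate 2 that of 9, against 9.36% and 9.02% of all tested genes. Arginine-deficient replicate 3 held the highest value of 8 members and the lowest of 19, so that 27 of 40 members had an extreme in the library richest in muscle and mitochondrial transcripts. In all tested genes it held 24.9% of the highest and 24.2% of the lowest values. Normal-diet replicate 5 held 22.2% and 21.25% of these, and the highest value of 6 members and the lowest of 7. The part of the tissue and RNA of arginine-deficient replicate 3 in the member values was not tested.

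**Figure D1:**
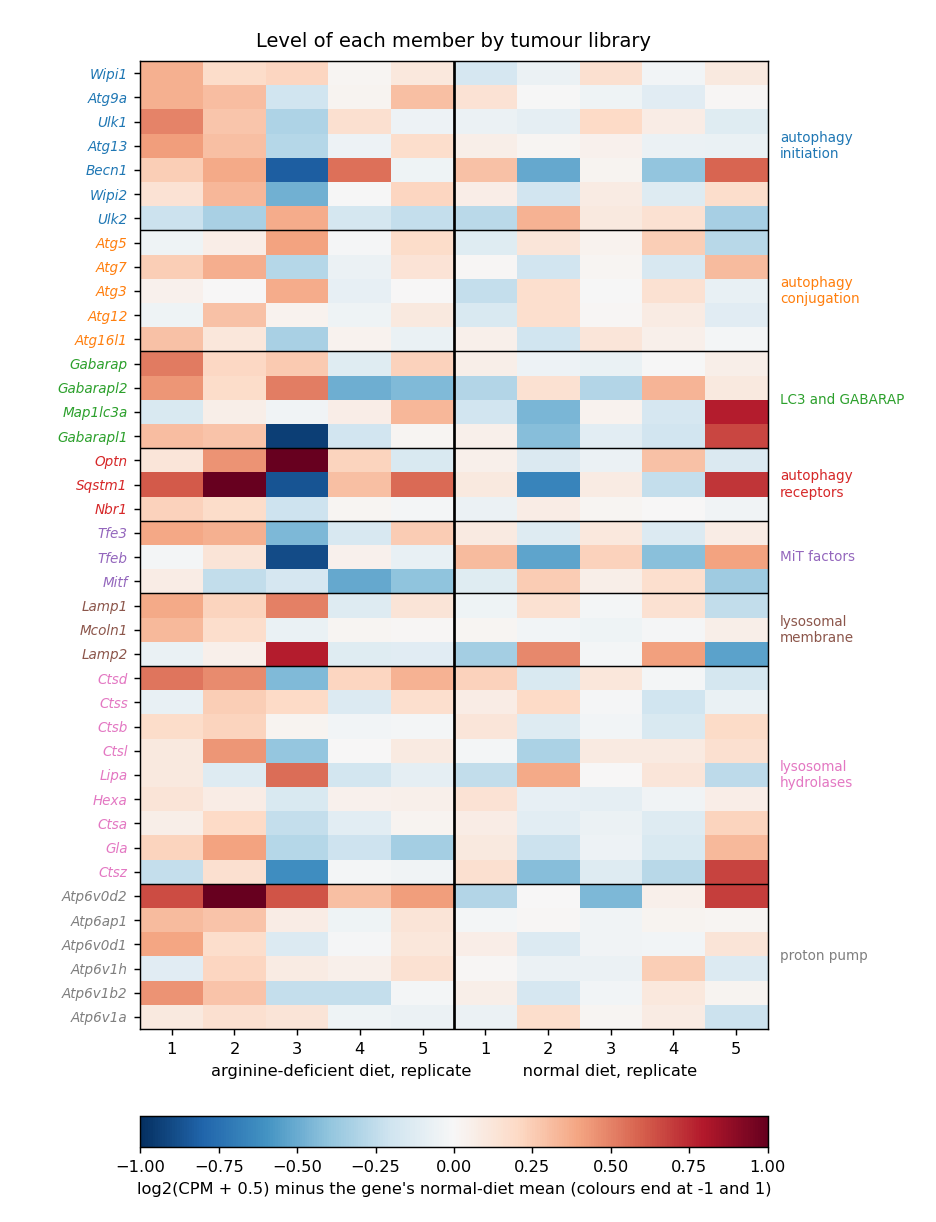
Level of each of the 40 members with counts (rows, grouped by role) in each tumour library (columns), as log2 of CPM plus 0.5 minus the gene's mean over the 5 normal-diet libraries; colours end at -1 and 1. Arginine-deficient replicates 1 and 2 are mostly red, with medians of 0.23 and 0.22, and arginine-deficient replicate 3 mixes strong red and strong blue rows.

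**Figure D2:**
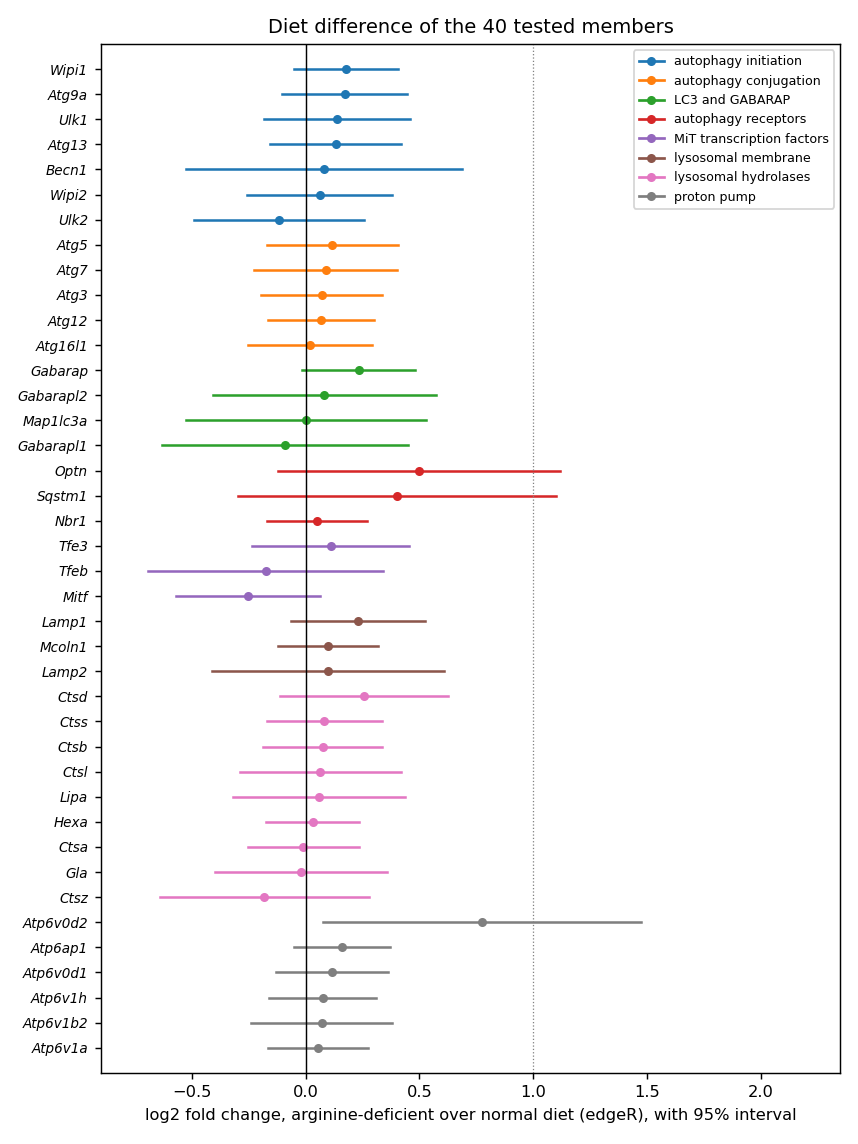
Log2 fold change of the arginine-deficient over the normal diet for the 40 tested members (points) with 95% intervals (lines), by role; the dotted line marks a doubling, at 1 on this scale. The interval of Atp6v0d2, from 0.08 to 1.47, is the only one that leaves out 0.

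Among the initiation genes, 6 of 7 had a log2 fold change above 0, with a median of 0.13, and none passed the test. Wipi1, which binds phosphatidylinositol 3-phosphate on the forming membrane, had the largest value. It was at 79.1, 69.9, 71.4, 62.5 and 66.3 CPM in the arginine-deficient tumours, against 54.6, 59.2, 68.7, 60.5 and 65.8 CPM in the normal-diet tumours. The 2 lowest values of the deficient diet were below the highest of the normal diet, and the log2 fold change was 0.18 ± 0.11 (SE; edgeR adjusted p = 0.866). Ulk1, the kinase that starts the process, averaged 63.5 ± 13.4 CPM on the deficient diet and 57.7 ± 5.47 CPM on the normal diet (mean ± SD, n = 5 each), a log2 fold change of 0.14 ± 0.15 (SE). Its paralogue Ulk2 had the only value below 0 in this role, -0.12 ± 0.17 (SE). Atg13, a subunit of the ULK1 complex, Atg9a, the lipid scramblase carried on small vesicles, and Wipi2, which recruits the conjugation machinery, had log2 fold changes of 0.13, 0.17 and 0.06. Becn1, a subunit of the phosphatidylinositol 3-kinase complex, varied widely among tumours of one diet, at 7.79 to 20.98 CPM on the deficient diet and 9.83 to 21.5 CPM on the normal diet. Bodies of other genes cover 85.3% of its exonic bases.

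The 5 conjugation genes attach LC3 and GABARAP proteins to lipid, and their log2 fold changes ran from 0.02 to 0.12, with a median of 0.07. Atg5, which with Atg12 and Atg16l1 forms the complex that directs lipidation, was at 34.1, 36.7, 46.5, 34.8 and 40.01 CPM in the arginine-deficient tumours, against 32.3, 38.1, 36.0, 41.7 and 28.9 CPM in the normal-diet tumours. Apart from the high value in arginine-deficient replicate 3 the diets overlapped, and its log2 fold change was 0.12 ± 0.13 (SE). Atg3, the enzyme that transfers LC3 to lipid, was at 61.4, 59.6, 77.0, 56.1 and 59.6 CPM on the deficient diet, against 50.2, 66.8, 59.4, 66.0 and 56.4 CPM on the normal diet. Again replicate 3 of the deficient diet stood alone above the rest, and the log2 fold change was 0.07 ± 0.12 (SE; edgeR adjusted p = 0.998). Atg7, the enzyme that activates both ubiquitin-like proteins, Atg12 and Atg16l1 had values of 0.09, 0.07 and 0.02.

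LC3 and GABARAP proteins coat the autophagosome membrane and bind cargo receptors. Map1lc3b (ENSMUSG00000031812.16, mm10 chr8:121590361-121598760, plus strand), the LC3 gene most used as a marker of autophagy, is listed at 0 in all 10 libraries and could not be tested. In the annotation, the bodies of other genes cover 100% of its exonic bases. Over the whole table, 85.4% of the 1451 genes fully covered by the bodies of other genes were at 0 in every library, against 19.0% of the 13996 genes with no such overlap. The 0 is therefore reported as listed, and no absence of the transcript is read from it. Map1lc3a was at 5.77, 6.77, 6.33, 6.82 and 8.29 CPM in the arginine-deficient tumours, against 5.61, 4.59, 6.64, 5.72 and 11.5 CPM in the normal-diet tumours. The highest and the lowest value were both from the normal diet, and the means of 6.80 and 6.82 CPM nearly coincided.

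Gabarap (ENSMUSG00000018567.14, mm10 chr11:69991143-69994951, plus strand) had the second lowest unadjusted p among the members. It was at 234, 189, 196, 150 and 192 CPM on the deficient diet, against 170, 158, 156, 163 and 171 CPM on the normal diet. In 4 of 5 arginine-deficient tumours it was above every normal-diet tumour, and arginine-deficient replicate 4 was below all of them. The log2 fold change was 0.23 ± 0.11 (SE), with an edgeR p of 0.0649 and an adjusted p of 0.772. Gabarapl1, whose level spread from 49.4 to 118 CPM on the deficient diet and 71.0 to 151 CPM on the normal diet, had a value of -0.09 ± 0.25 (SE). Gabarapl2 had a value of 0.08 ± 0.23 (SE).

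Autophagy receptors link ubiquitin-tagged cargo to LC3 and are themselves consumed with it. Sqstm1, which encodes p62 (ENSMUSG00000015837.15, mm10 chr11:50199366-50210827, minus strand), was at 784, 1100, 282, 633 and 760 CPM in the arginine-deficient tumours, against 550, 325, 544, 434 and 840 CPM in the normal-diet tumours. The highest and the lowest of the 10 values were both on the deficient diet, the lowest in replicate 3. Means were 712 ± 295 CPM on the deficient diet and 539 ± 192 CPM on the normal diet (mean ± SD, n = 5 each), a log2 fold change of 0.40 ± 0.32 (SE; edgeR adjusted p = 0.948). Without arginine-deficient replicate 3 the log2 fold change was 0.61 (adjusted p = 0.405 in edgeR), and without arginine-deficient replicate 2 it was 0.19. Optn, a receptor for mitochondria and bacteria, was low throughout, at 2.63, 3.41, 5.86, 2.85 and 2.09 CPM on the deficient diet, against 2.48, 2.11, 2.26, 3.01 and 2.10 CPM on the normal diet. Apart from the high value in arginine-deficient replicate 3 the diets overlapped, and its log2 fold change was 0.50 ± 0.28 (SE; edgeR adjusted p = 0.848). It was 0.20 without that library and 0.28 without the 3 muscle-rich libraries. Nbr1, a second ubiquitin-binding receptor, had a value of 0.05 ± 0.10 (SE).

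**Figure D3:**
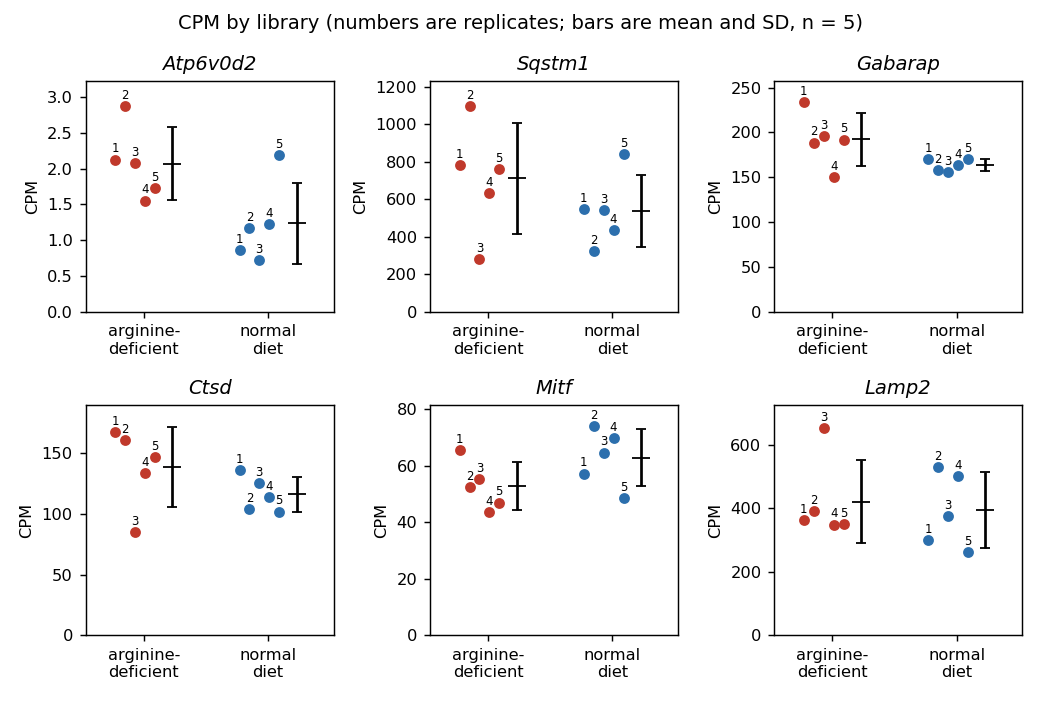
CPM of 6 members in each library (points numbered by replicate) for the arginine-deficient diet on the left and the normal diet on the right, with mean and SD (bars, n = 5). Gabarap was above every normal-diet tumour in 4 of 5 arginine-deficient tumours, and arginine-deficient replicate 3 was the lowest library for Sqstm1 and Ctsd and the highest for Lamp2.

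The MiT factors switch on lysosomal and autophagy genes when they are nuclear, and they are controlled chiefly by location. Tfeb was at 23.5, 26.0, 12.5, 24.4 and 22.5 CPM in the arginine-deficient tumours, against 29.7, 16.3, 27.9, 17.6 and 31.6 CPM in the normal-diet tumours. Arginine-deficient replicate 3 was the lowest of all, the other 4 of that diet lay within the normal-diet range, and the log2 fold change was -0.18 ± 0.24 (SE). Tfe3 was at 119, 116, 66.6, 81.4 and 109 CPM on the deficient diet, against 96.7, 83.3, 97.7, 82.9 and 95.6 CPM on the normal diet. Here 3 of 5 arginine-deficient tumours were above every normal-diet tumour and 2 were below all of them, with a log2 fold change of 0.11 ± 0.16 (SE). Mitf, best known from melanocytes, was at 65.5, 52.5, 55.3, 43.5 and 47.0 CPM on the deficient diet, against 57.2, 74.0, 64.7, 69.7 and 48.6 CPM on the normal diet. The deficient diet held the 2 lowest values, and the log2 fold change was -0.25 ± 0.15 (SE; edgeR adjusted p = 0.855). The summed CPM of 5 melanocyte markers was 0.24 to 1.27 on the deficient diet and 0.61 to 2.44 on the normal diet, so the defining genes of melanocytes were at or near 0.

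Among the lysosomal membrane proteins, Lamp1, an abundant glycoprotein of the lysosomal membrane, was at 492, 441, 539, 345 and 414 CPM in the arginine-deficient tumours, against 367, 422, 374, 422 and 319 CPM in the normal-diet tumours. The 3 highest values were on the deficient diet and the ranges overlapped, with a log2 fold change of 0.23 ± 0.14 (SE; edgeR adjusted p = 0.862). Bodies of other genes cover 64.4% of its exonic bases. Lamp2, needed for lysosomes to receive cargo, averaged 421 ± 131 CPM on the deficient diet and 393 ± 119 CPM on the normal diet (mean ± SD, n = 5 each). It was at 652 CPM in arginine-deficient replicate 3, and without that library its log2 fold change was -0.11, where it was 0.10 with all 10, and without all 3 muscle-rich libraries it was 0.014. For Mcoln1, the calcium channel TRPML1, the value was 0.10 ± 0.10 (SE).

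The lysosomal hydrolases digest proteins, glycolipids and lipid esters. Ctsd, the aspartic protease cathepsin D, was at 167, 160, 84.7, 134 and 146 CPM in the arginine-deficient tumours, against 136, 104, 125, 114 and 102 CPM in the normal-diet tumours. The 3 highest values were on the deficient diet, which also held the lowest one, in replicate 3. The log2 fold change was 0.26 ± 0.17 (SE; edgeR adjusted p = 0.903), and bodies of other genes cover 63.7% of its exonic bases. Ctsl, the cysteine protease cathepsin L, was at 1809, 2296, 1288, 1692 and 1797 CPM on the deficient diet, against 1668, 1354, 1792, 1795 and 1882 CPM on the normal diet. Both extremes were again on the deficient diet, with a log2 fold change of 0.06 ± 0.16 (SE). Ctsb and Ctss, cysteine cathepsins, had values of 0.08 and 0.08. Ctsz, an exopeptidase, had the lowest value of the role at -0.18 ± 0.21 (SE), with 221 to 381 CPM on the deficient diet and 253 to 545 CPM on the normal diet. Ctsa, the protective protein of sialidase and galactosidase, Hexa, a subunit of hexosaminidase, Gla, the α-galactosidase, and Lipa, the acid lipase, all had values between -0.02 and 0.06.

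The vacuolar proton pump acidifies the lysosome, and Atp6v0d2 and Atp6v0d1 encode alternative forms of its d subunit. Atp6v0d2 (ENSMUSG00000028238.6, mm10 chr4:19876841-19922605, minus strand), the form known from osteoclasts and macrophages in mice, was at 2.13, 2.88, 2.07, 1.55 and 1.73 CPM in the arginine-deficient tumours, against 0.86, 1.17, 0.72, 1.23 and 2.19 CPM in the normal-diet tumours. Every arginine-deficient tumour was above 4 of 5 normal-diet tumours, and normal-diet replicate 5 was above all but 1 of them. Means were 2.07 ± 0.51 CPM on the deficient diet and 1.23 ± 0.57 CPM on the normal diet (mean ± SD, n = 5 each). The log2 fold change was 0.77 ± 0.32 (SE; 95% interval 0.08 to 1.47), with an edgeR p of 0.0327 and an adjusted p of 0.687. These values rest on 16 to 67 counts per library. The log2 fold change was 1.05 without normal-diet replicate 5 (edgeR adjusted p = 0.319) and 0.91 without the 3 muscle-rich libraries (edgeR adjusted p = 0.611). By limma voom with sample weights it was 1.13 and passed (adjusted p = 0.0431), in a fit that called 2.88% of all genes.

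Of the 6 osteoclast markers, Calcr was at most 0.17 CPM. Acp5 is listed at 0 in all libraries, and as other gene bodies cover 100% of its exonic bases, nothing is read from that. The others did not run one way. Ocstamp, which osteoclasts and some macrophages need to fuse, was at 0.58 to 0.84 CPM on the deficient diet and 0.51 to 1.85 CPM on the normal diet. Its means were 0.71 and 1.26 CPM, a log2 fold change of -0.81 ± 0.33 (SE), with an edgeR p of 0.0323 and an adjusted p of 0.685. Dcstamp, another fusion gene, averaged 0.69 CPM on the deficient diet and 0.34 CPM on the normal diet, and Mmp9, a protease, averaged 25.9 CPM on the deficient diet and 19.4 CPM on the normal diet. Ctsk, the bone-resorbing cathepsin K, averaged 8.83 CPM on the deficient diet and 11.6 CPM on the normal diet. None of these had an edgeR adjusted p under 0.68, Dcstamp having too few counts to be tested. The summed CPM of the 6, mostly from Mmp9 and Ctsk, was 23.1 to 52.2 on the deficient diet and 20.96 to 53.7 on the normal diet. The summed macrophage level was 2836 to 3409 CPM on the deficient diet and 2517 to 3387 CPM on the normal diet. With that level as a covariate, the log2 fold change of Atp6v0d2 was 0.65 (edgeR adjusted p = 0.883).

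Atp6v0d1, the form present in most tissues, was at 124, 107, 85.7, 93.6 and 102 CPM on the deficient diet, against 98.7, 85.8, 92.1, 92.5 and 103 CPM on the normal diet. The diets overlapped over most of their range, and the log2 fold change was 0.12 ± 0.11 (SE; edgeR adjusted p = 0.974). Atp6ap1, an accessory subunit of the pump, was at 300.4, 293, 254, 233 and 264 CPM in the arginine-deficient tumours, against 238, 242, 235, 245 and 244 CPM in the normal-diet tumours. Of the arginine-deficient tumours 4 of 5 were above every normal-diet tumour, replicate 4 was below all of them, and the log2 fold change was 0.16 ± 0.10 (SE; edgeR adjusted p = 0.870). Atp6v1a and Atp6v1b2, the catalytic core of the pump, and Atp6v1h, a regulatory subunit, had values of 0.05, 0.07 and 0.08.

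Levels can be set side by side between genes only per length, as TPM (transcripts scaled to a common total) from the counts and each gene's exonic length. On this scale the hydrolases led, with mean TPM over all 10 libraries of 983 for Ctsl, 975 for Ctss, 875 for Ctsb and 846 for Ctsz. Sqstm1 followed at 684 TPM, Lamp1 at 564 TPM and Gabarap at 353 TPM. The ranges over libraries of the 4 leading cathepsins overlapped. Their order within each library was not compared, so no order among them is read. The d subunit of the pump was mostly the common form: Atp6v0d1 averaged 201 TPM and Atp6v0d2 averaged 2.20 TPM, the lowest of the 40. Of the MiT factors Tfe3 averaged 37.7 TPM, Mitf 34.3 TPM and Tfeb 15.1 TPM. The ranges of Tfe3 and Mitf over libraries overlapped, and no order is read between them either. Becn1, at 7.92 TPM, and Optn, at 2.76 TPM, were the only other members with counts below 10 TPM. Bodies of other genes cover 85.3% of the exonic bases of Becn1, 64.4% of those of Lamp1 and 63.7% of those of Ctsd. TPM here makes no allowance for such overlap, so the places of these and other overlapped genes in the order are uncertain.

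**Figure D4:**
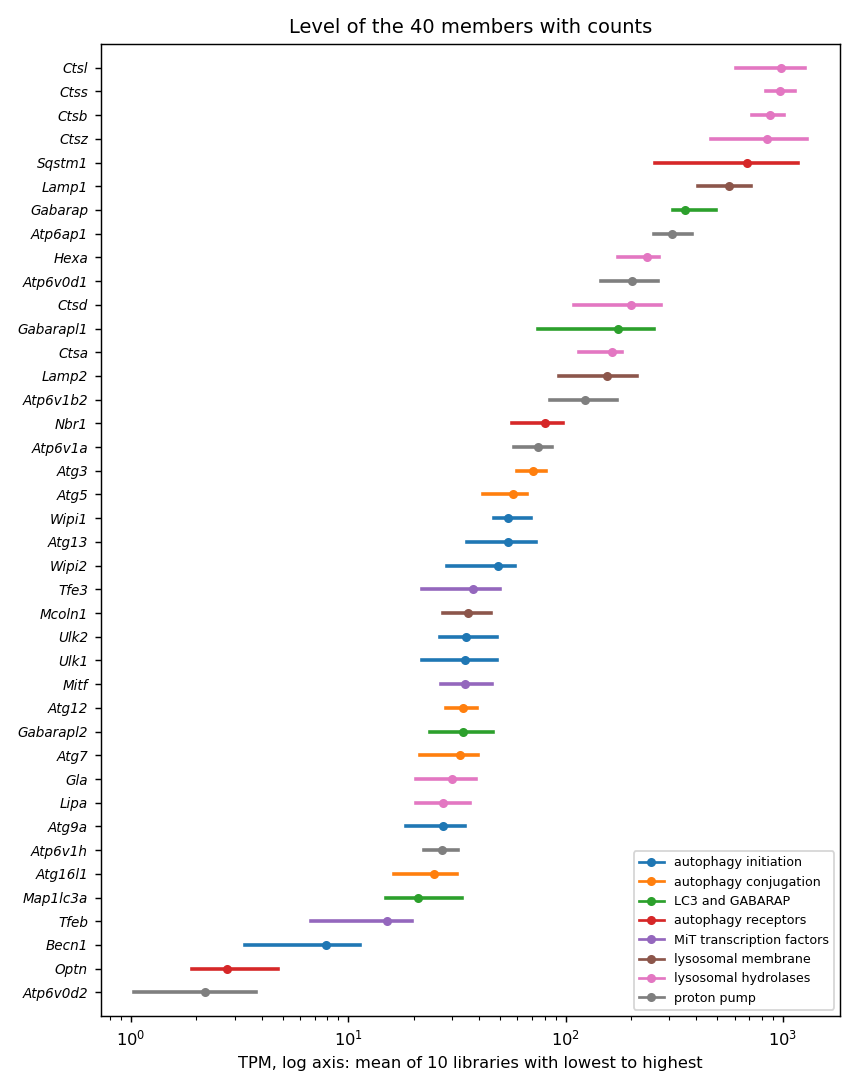
Level per length of the 40 members with counts, as TPM on a log axis: mean of 10 libraries (points) with the lowest and highest library (lines), coloured by role. The 4 cathepsins Ctsl, Ctss, Ctsb and Ctsz lead, and Optn and Atp6v0d2 are lowest, at 2.76 and 2.20 TPM. TPM makes no allowance for overlap with the bodies of other genes.

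The members whose promoters hold TCACGTGA did not stand out by diet. The 7 of them, shown above with their sequences, had a median log2 fold change of 0.07, with a range of -0.02 to 0.26 and 5 above 0. The 25 other tested members with a matched promoter had a median of 0.09, with 20 above 0. Ctsd had the highest value of the 7 and Gla the lowest, and the 4 copies of CACGTG before Lamp1 stood beside a log2 fold change of 0.23. No difference between these groups was tested.

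With the 3 muscle-rich libraries left out, 3 arginine-deficient and 4 normal-diet tumours remained. The median log2 fold change of the members was then 0.15, that of the autophagy genes 0.19, that of the hydrolases 0.08 and that of the pump subunits 0.24. Over the genes tested with all libraries the median in this fit was -0.02. The number of members at an unadjusted p under 0.05 was 7 of 40, beside 8.42% of all tested genes, and 0 passed the adjusted threshold in edgeR. In 6 members the diets did not overlap, beside 10.5% of all tested genes: Atg13, Atg9a, Gabarap, Tfe3, Ctsd and Atp6ap1, all higher on the deficient diet. Among the libraries left out, arginine-deficient replicate 3 was the lowest of all for Atg13, Atg9a, Tfe3 and Ctsd. Arginine-deficient replicate 4, also left out, was the lowest for Gabarap and Atp6ap1. The lack of overlap thus depends on which libraries were removed. For Ctsd, which had the lowest p, the levels were 168, 161 and 147 CPM in the arginine-deficient tumours, against 136, 103, 126 and 102 CPM in the normal-diet tumours. Its log2 fold change was 0.44 ± 0.14 (SE), with an edgeR p of 0.00929 and an adjusted p of 0.396. The part of muscle tissue in these values was not tested.

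Across the 10 tumours, the levels of many members moved with the GC trend of the library. Of 40 members, 15 had a Pearson correlation with the library GC slope that passed Benjamini-Hochberg adjustment over the 40 (permutation, 100000 resamples), 10 of them positive and 5 negative. By Spearman's rho 10 passed. The share of all tested genes passing in the same way is not given, so nothing about the members is read from these counts. Every one of the 15 kept its sign without arginine-deficient replicate 3 and normal-diet replicate 2, the 2 libraries farthest from the median slope. Such relations were common over the whole table too: 13 members (32.5%) had an r beyond 0.8 in size, and so did 28.7% of all tested genes. The median size of r was 0.63 over the members and 0.62 over all tested genes. The slope itself is computed from all genes of the same libraries, and its part in the diet differences of single members was not tested. The slope did not separate the diets, at 0.00081 ± 0.261 on the deficient diet and -0.00081 ± 0.246 on the normal diet (mean ± SD, n = 5 each; exact two-sided permutation p = 1.0).

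Lamp2, whose transcript is 38.7% GC, had an r of -0.97 and a rho of -0.92 with the slope, and -0.92 for r without the 2 libraries. Lipa and Ulk2 had an r of -0.95 and -0.93. At the other end, Becn1, at 45.04% GC, had an r of 0.97, Tfeb, at 63.2% GC, one of 0.95, and Ctsz and Gabarapl1 one of 0.89 each. Sqstm1 had an r of 0.88 and a rho of 0.77, and its r was 0.65 without the 2 libraries. Ctsl had an r of 0.75 that fell to 0.12 without them, so it rests on those 2. All 15 members with at least 52% GC had a positive r, and 8 of 10 members under 45% GC had a negative one, while Becn1 and Atg16l1, just above 45%, had an r of 0.97 and 0.65. The slope is fitted to gene levels on transcript GC content, so such signs are largely built in. No result about the members is read from them. Gabarap and Wipi1, at -0.02 and 0.0055, were among the members with no relation to the slope, and Atp6v0d2 was at 0.13. With the GC and length slopes as covariates, 0 of 40 members passed in edgeR, 5 were at an unadjusted p under 0.05, where 16.3% of all tested genes were, and the lowest adjusted p was 0.215, for Ctsz.

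**Figure D5:**
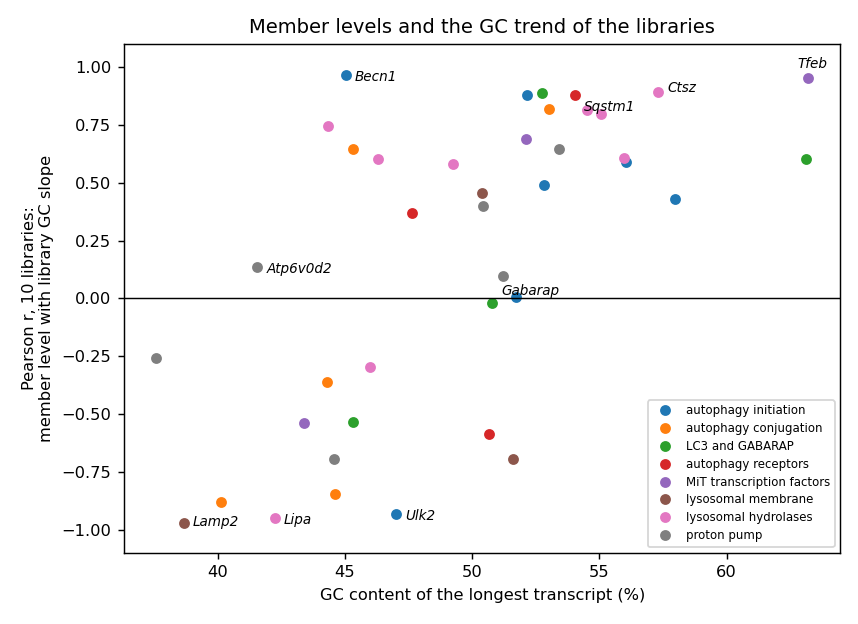
Pearson r over 10 libraries between a member's log2 CPM and the library GC slope (vertical axis) against the GC content of its longest transcript in percent (horizontal axis), 1 point per tested member, coloured by role. Members with at least 52% GC all lie above 0, and Lamp2, Lipa and Ulk2 lie lowest, at -0.97, -0.95 and -0.93. The slope is itself fitted on transcript GC content, so the signs are largely built in.

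Member levels were also set against the summed level of the macrophage markers. For 0 of 40 members did the Pearson correlation pass adjustment over the 40, and the lowest adjusted p was 0.491 (permutation, 100000 resamples). The highest values belonged to Ctsb, with an r of 0.74 and a rho of 0.81 (permutation p of 0.0142 for r), Ctss, with an r of 0.66, and Atg9a, with an r of 0.66. For Ctsb the r was 0.60 without normal-diet replicates 3 and 4, the libraries farthest from the median macrophage level, and 0.64 and 0.74 within the deficient and the normal diet. With the macrophage level as a covariate in edgeR, the median log2 fold change of the hydrolases was 0.01 and that of the pump subunits 0.09.

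Beyond the 41 members, 138 further genes of autophagy, lysosomal digestion and membrane, the proton pump and mTORC1 control were examined as 5 lists, of which 130 genes were tested. In edgeR none passed the adjusted threshold in either direction, 71 had a log2 fold change above 0 and 59 below it, and the median was 0.03. At an unadjusted p under 0.05 there were 5, 3 higher and 2 lower, and in 1 the diets did not overlap, beside 6.74% and 1.65% of all tested genes. The median log2 fold change was -0.0056 over 35 autophagy genes, -0.03 over 38 hydrolases, 0.04 over 27 membrane and sorting genes, 0.06 over 17 pump subunits and assembly factors, and 0.04 over 13 regulators.

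The wider hydrolases held values in both directions. Aga, which cuts the link between asparagine and sugar chains, averaged 39.2 ± 2.88 CPM on the deficient diet and 47.1 ± 3.79 CPM on the normal diet (mean ± SD, n = 5 each; log2 fold change -0.27, edgeR adjusted p = 0.625). Arsb, the arylsulfatase of dermatan sulfate, was also lower in value, with a log2 fold change of -0.32 ± 0.14 (SE; edgeR adjusted p = 0.688). Scpep1, a serine carboxypeptidase, was on the other side at 0.48, with 78.7 ± 22.6 CPM on the deficient diet and 56.4 ± 7.92 CPM on the normal diet (mean ± SD, n = 5 each). Bodies of other genes cover 64.1% of its exonic bases.

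Ccdc115, which helps to assemble the pump, was the gene without overlap. It was at 20.0, 20.3, 24.1, 21.4 and 22.8 CPM in the arginine-deficient tumours, against 19.0, 16.6, 18.1, 18.6 and 19.0 CPM in the normal-diet tumours. The nearest values of the diets were 1 CPM or less apart, and the log2 fold change was 0.25 ± 0.11 (SE), with an edgeR p of 0.0437 and an adjusted p of 0.719. Atp6v0a1 and Atp6v0a2, forms of the a subunit in the membrane sector, had log2 fold changes of 0.26 and 0.23, and Atp6v0e2, a form of the e subunit, had one of -0.29.

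Among the regulators, Rragd, a Rag GTPase that recruits mTORC1 and TFEB to lysosomes, had the largest difference, at 2.75 ± 1.05 on the log2 scale (SE; edgeR adjusted p = 0.621). Replicates 3 and 4 of the deficient diet held 23.8 and 4.06 CPM of it, replicate 4 of the normal diet held 2.45 CPM, and the other 7 libraries 0.288 to 1.396 CPM. Those 3 are the muscle-rich libraries, and without them the log2 fold change was 0.73 (edgeR adjusted p = 0.758). Its relative Rragc had a log2 fold change of 0.17, Fnip1, a partner of folliculin, one of -0.24, and Rptor, the mTORC1 subunit that binds the Rag proteins, one of -0.16. In the wider autophagy list Epg5, a tether of autophagosomes, Atg10, the enzyme that transfers Atg12, Bnip3, a receptor for mitochondria, and Rubcn, a brake on autophagosome maturation, had values of 0.24, -0.27, 0.38 and 0.16. Bodies of other genes cover 57.9% of the exonic bases of Bnip3. Of the membrane genes, Npc1, the cholesterol exporter, and Sort1, a sorting receptor, had values of 0.23 ± 0.14 and 0.77 ± 0.49 (SE). Abcb9, a peptide transporter, and Laptm4a, a membrane protein of late endosomes, had values of 0.45 ± 0.30 and 0.24 ± 0.16 (SE). Sort1 was at 8.51 CPM in arginine-deficient replicate 3 and at 0.96 to 2.72 CPM in all other libraries. Laptm4a was also highest in arginine-deficient replicate 3, at 567 CPM, and Abcb9 rests on 7 to 33 counts per library. None of the genes named in this paragraph had an adjusted p under 0.62 in edgeR.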

How the data were processed

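Per the labels' protocols, total RNA of the 10 tumours was extracted with TRIzol for Illumina sequencing. The authors deposited 1 raw count per gene and library, without normalization. The submitters' processing notes name FastQC, STAR, featureCounts and the build mm10. Their versions, and the treatment of strand and of reads shared by genes, are not given in those sources. The 2 kinds of sample title, Arg and Control, were taken for the diets from the series' design text, which speaks of separate mice, so p-values measure the spread between mice. The 41 members and all lists were chosen with earlier results of these data known.

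Symbols, positions, exonic length and overlap came from GENCODE M21, on the same build: of 21849 identifiers, 21379 matched exactly, 437 did so apart from their version and 33 did not match. Each pair of libraries differed by more than sampling noise (lowest chi-square per degree of freedom 17.05). Diets were compared by the quasi-likelihood test of edgeR 4.0.16 in R 4.3.3, with TMM factors and filterByExpr defaults (minimum count 10, minimum total 15), diet as its only term, on 12929 genes with 99.89% of counts. P-values were adjusted over all of them, with a threshold of 0.05. A standard error is the size of the log2 fold change divided by the root of its F statistic. The biological coefficient of variation was 26.5%. TPM was computed from counts and exonic length, and promoters came from RefSeq on GRCm38.p6. Gene lists were described by counts and medians, with no test of a list.

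Values in every library were given for members with unadjusted p under 0.05 or no overlap, for the member with the highest TPM and the one with the largest log2 fold change of each role, and for Sqstm1 and the pairs and family named together; from each wider list the 4 genes with the smallest p were named. Of the genes so taken, 1 is not reported here. Alternatives were other size factors, other filters, DESeq2 1.42.0, limma 3.58.1 voom with sample weights, leaving out 1 library at a time, a replicate block, the 3 muscle-rich libraries left out, GC and length slopes as covariates, and the macrophage level as a covariate. The GC slope of a library was that of log2 CPM, relative to the mean library, on transcript GC content. It was fitted together with a slope on the logarithm of gene body length, which is the length slope.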

Additional observations from a re-analysis of the deposited data

Results flagged for a closer look

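Arginine-deficient replicate 3 lay far from the other 4 tumours of its diet in 4 members: Ulk2, at 75.9 CPM, Atg3, at 77.0 CPM, and Lamp2, at 652 CPM, were high there, and Tfeb, at 12.5 CPM, was low. These are 4 of 80 groups of a member and a diet that were examined. Chance gives about 1 in 20 for a single group. The groups share the same 10 libraries and all 4 lie in 1 library, so they are not independent. The count is therefore not read against that share. The same library stood apart in its share of mitochondrial counts, at 9.97%, in its summed skeletal muscle level, at 6680 CPM, and in its GC slope, at -0.463 per 10 percentage points. Normal-diet replicate 4 stood apart from the other normal-diet tumours in its summed skeletal muscle level, at 664 CPM. The part of these library measures in the 4 members' values was not tested.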

How the results depend on the processing

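The count of members past the adjusted threshold was 0 in every alternative except limma voom with sample weights, which called 1 member, Atp6v0d2, and 2 genes of the wider lists, Arsb and Scpep1. Of the members, the number at an unadjusted p under 0.05 was 7 of 40 with voom (20.0% of all tested genes), 7 without the 3 muscle-rich libraries (8.42%), 5 with GC and length slopes as covariates (16.3%) and 0 with the macrophage level as covariate (6.32%), and 0 to 4 with one library left out (4.37% to 10.6%), against 1 with all 10 (6.74%). It was 4 of 40 without arginine-deficient replicate 3 (10.6% of all tested genes), 3 without arginine-deficient replicate 4, 2 without arginine-deficient or normal-diet replicate 5, and 0 without arginine-deficient replicate 2 or any of normal-diet replicates 1 to 4. Members without overlap numbered 6 without the muscle-rich libraries (10.5% of all tested genes). They numbered 0 to 2 with 1 library left out (2 without arginine-deficient replicate 4, 1 without normal-diet replicate 5). The share of all tested genes is not given for those fits, so nothing about the members is read from these counts. The median log2 fold change of the proton pump was 0.24 without the muscle-rich libraries. Over all genes 7 were called in edgeR, 132 by DESeq2, 373 by voom, 78 with the slopes, 18 without the muscle-rich libraries and 0 with the macrophage covariate. With one library left out, 0 to 16 were called.

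Same-numbered replicates of the diets are not stated to be paired, and the correlations of their deviations ran from -0.386 to 0.193. These were not set beside the correlations of differently numbered tumours, so a shared cage, day or batch cannot be told from them. With a replicate block, 0 members were called, 1 was at an unadjusted p under 0.05, the medians were 0.07 over the members and the autophagy genes, 0.05 over the hydrolases and 0.09 over the pump, 0 genes of the wider lists were called, and 1 gene was called in all.

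Signs of small log2 fold changes turned, and the cause was not tested. Map1lc3a was at -0.00153 with DESeq2's size factors in edgeR, -0.019 with upper quartile factors, -0.00227 with a stricter filter (1 CPM or more in 5 libraries), -0.019 without the muscle-rich libraries and -0.056 with the macrophage covariate. Atg16l1 was at -0.00505 with upper quartile factors. With voom, values were -0.00543 for Atg3, -0.021 for Atg16l1, 0.12 for Gabarapl1, -0.00286 for Gabarapl2, -0.079 for Lamp2, 0.070 for Ctsa, 0.069 for Ctsz, -0.089 for Lipa and -0.00684 for Atp6v1a. Without the muscle-rich libraries they were 0.11 for Gabarapl1, 0.064 for Ctsa, 0.086 for Gla and -0.024 for Lipa. With the macrophage covariate they were -0.00825 for Wipi2 and -0.00183 for Hexa. With one library left out, values ran from -0.061 to 0.10 for Atg16l1, -0.038 to 0.20 for Gabarapl2, -0.00363 to 0.11 for Nbr1, -0.045 to 0.14 for Atp6v1b2, -0.0143 to 0.18 for Wipi2, -0.11 to 0.27 for Map1lc3a, -0.046 to 0.16 for Ctsl, -0.00989 to 0.11 for Atg3, -0.20 to 0.12 for Gabarapl1, -0.11 to 0.23 for Lamp2, -0.0679 to 0.0493 for Ctsa, -0.15 to 0.069 for Gla, -0.0882 to 0.17 for Lipa, -0.049 to 0.26 for Becn1 and -0.28 to 0.026 for Ctsz. With one library left out, Gabarap was at 0.15 without arginine-deficient replicate 1, and Tfeb ran from -0.29 to -0.03. Atp6v0d2 rests on 16 to 67 counts per library.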
